A study of Homo sapiens with 5 samples.

Results

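The canonical p53 target loci examined here are the surroundings of 7 genes, CDKN1A, MDM2, BBC3, BAX, GADD45A, FAS and TP53I3. They were chosen by name, and a peak was counted for a gene when it overlapped the gene span widened by 50 kb on each side. Of 25574 ERG peaks in 2 lists, 24 lay in these 7 windows, and of 365 p53 peaks in 2 lists, 0 did. The peaks come from chromatin immunoprecipitation followed by sequencing (ChIP-seq) on untreated VCaP cells, with 2 replicates each for ERG and for p53 and 1 input sample, which is not analysed here. VCaP is a single established prostate cancer cell line. It carries the TMPRSS2-ERG fusion, which places the ETS factor ERG under an androgen-responsive promoter, and the p53 it makes is a mutant form. There was no sample with wild-type p53 and none without ERG, so each list describes the same cells. The p53 antibody DO-1 binds the N-terminal part of the protein and recognises wild-type and mutant p53 alike.

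Wild-type p53 is a tetramer that binds a pair of adjoining decamers in DNA and switches on genes of cell cycle arrest, apoptosis and DNA repair after damage. Substitutions in its DNA-binding domain weaken or abolish that contact, and some of the resulting proteins reach chromatin through other factors. ERG recognises the ETS core GGAA and in normal adults is mainly a factor of endothelial and blood cells, so that in prostate epithelium its presence is a result of the fusion. Among the 7 genes, CDKN1A encodes p21, an inhibitor of cyclin-dependent kinases, and GADD45A a stress sensor of growth arrest and DNA repair. MDM2 is the ubiquitin ligase that keeps p53 low. BBC3 encodes PUMA and BAX a pore-forming protein, both of the mitochondrial route of apoptosis, FAS encodes a death receptor, and TP53I3 encodes PIG3, an oxidoreductase linked to reactive oxygen species.

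A p53 binding sequence of CDKN1A is shown first. The study used a 25-base CDKN1A probe in its binding assays, in which the capitals mark the pair of decamers:

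CDKN1A probe: cagGAACATGTCCCAACATGTTGag

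The first decamer, bases 4 to 13, matched the p53 consensus without a mismatch and the second, bases 14 to 23, with 2 mismatches. The probe matched GRCh38 once, at chr6:36676446-36676470 on the plus strand, and ended 2244 bp before the CDKN1A start used for the RefSeq promoter below. A distance of that size is far shorter than the 50 kb margin. In the study's assays, mutant p53 from VCaP cells bound a probe from the CTNNB1 promoter and not the CDKN1A one. Wild-type p53 from LNCaP cells bound the CDKN1A probe and not the CTNNB1 one. The CTNNB1 probe, of equal length, held no such element:

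CTNNB1 probe 1: gccccctcgcgccccgccccttgtc

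Elements of the same kind stood in inner promoters of MDM2 and FAS. The set of RefSeq (GRCh38.p14) promoters used here held 11 promoters for 6 of the 7 genes, and GADD45A was not in that set. With at most 2 mismatches over the pair of decamers, a limit set so that it takes in the CDKN1A probe, an element was found in 3 of the 11 promoters and in 0.650% of all 35097 promoters of 300 bases. The 3 were a pair of overlapping windows at the second MDM2 start, which lies 845 bp downstream of the first, and 1 window at an inner FAS start, 633 bp downstream of the first. Pairs of decamers with more mismatches or with bases between them were left unmarked. Sites outside the 300 bases, such as the CDKN1A probe, lay outside this search. A gene without a match here is thus not shown to lack an element, and binding of wild-type p53 to these promoters was not measured. The 250 bases before each of these starts are shown with the element in capitals:

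MDM2 second promoter, chr12:68808767-68809016, plus strand: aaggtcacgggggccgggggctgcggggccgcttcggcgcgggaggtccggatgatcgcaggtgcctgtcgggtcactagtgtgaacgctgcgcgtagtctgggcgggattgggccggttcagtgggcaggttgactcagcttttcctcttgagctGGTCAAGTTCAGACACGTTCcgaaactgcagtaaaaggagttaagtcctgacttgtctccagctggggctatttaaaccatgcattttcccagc

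FAS inner promoter, chr10:88991181-88991430, plus strand: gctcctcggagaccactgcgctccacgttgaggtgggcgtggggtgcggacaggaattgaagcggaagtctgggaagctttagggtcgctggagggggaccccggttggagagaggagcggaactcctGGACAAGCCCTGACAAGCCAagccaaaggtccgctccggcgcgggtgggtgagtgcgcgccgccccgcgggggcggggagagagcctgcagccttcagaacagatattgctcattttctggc

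The ETS core is far more common. GGAA on either strand stood in 10 of the 11 promoters, with BAX as the exception, and in 95.5% of all promoters. The longer CGGAAG, which contains GGAA, stood in 3 of the 11, again the pair of overlapping windows at 1 MDM2 start (here the first) and the inner FAS start, and in 19.5% of all promoters. The promoters at the first MDM2 start and at CDKN1A are shown with GGAA, or TTCC where the core is on the other strand, in capitals, since ERG peaks lay near the start side of both gene spans:

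CDKN1A promoter, chr6:36678464-36678713, plus strand: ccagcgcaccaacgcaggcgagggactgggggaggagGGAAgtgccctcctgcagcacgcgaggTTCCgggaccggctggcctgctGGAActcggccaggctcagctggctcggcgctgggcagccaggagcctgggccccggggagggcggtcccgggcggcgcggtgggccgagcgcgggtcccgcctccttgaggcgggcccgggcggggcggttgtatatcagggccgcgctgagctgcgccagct

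MDM2 first promoter, chr12:68807922-68808171, plus strand: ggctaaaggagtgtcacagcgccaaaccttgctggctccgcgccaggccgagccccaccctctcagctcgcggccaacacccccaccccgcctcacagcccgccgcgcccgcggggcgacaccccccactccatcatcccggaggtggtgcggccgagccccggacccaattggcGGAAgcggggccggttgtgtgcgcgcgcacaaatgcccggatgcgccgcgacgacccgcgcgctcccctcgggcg

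These letters come from GRCh38, whereas the peaks are given in hg19, and no position was converted between the builds. Which of these bases lie under a peak was therefore not determined. A match to a motif describes the letters alone.

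The p53 ChIP-seq was made to ask whether mutant p53 binds at pyrimidine synthesis genes. From it, the study also reported no obvious binding of the mutant at the usual p53 targets. The peak set described there is larger than the deposited lists, which are read here at 7 such targets. No p53 peak was listed at these 7 genes. The p53 list of replicate 1 held 0 peaks in the windows of CDKN1A, MDM2, BBC3, BAX, GADD45A, FAS and TP53I3, and the list of replicate 2 also held 0. The background was taken from tiles of 112 kb, the median length of the 7 windows, laid over each chromosome between its outermost peaks. Of 26790 tiles, 0.747% held a peak of p53 replicate 1, 0.377% a peak of p53 replicate 2 and 1.02% a p53 region of either. At that last share, 0.0711 of 7 tiles would hold a p53 region, so that a count of 0 of 7 is near the background. A count of 0 of 7 windows allows a share of up to 42.9%, from counting error alone. The absence is thus a description of lists of 227 and 138 peaks. It does not set these 7 genes apart from the rest of the genome. Merged over both lists, the p53 peaks formed 328 regions, of which 37 held a peak of each replicate (11.3%, Wilson interval 8.3% to 15.2%). The p53 lists thus had few regions in common, which limits what their counts of 0 can say about these genes. Peak calling thresholds for p53 are stated, but none of them could be tied to these 2 lists, which hold far fewer peaks than the p53 sets described.

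The nearest p53 peaks were mostly megabases away, as they are from most of the genome. In replicate 1 the distance from the gene span to the nearest p53 peak ran from 1.78 Mb at BBC3 to 27.9 Mb at GADD45A, with a median of 4.74 Mb. In replicate 2 it ran from 0.62 Mb, also at BBC3, to 65.6 Mb at TP53I3, with a median of 11.4 Mb. From genome tiles of 12 kb, the median length of the 7 spans, the median distance was 6.46 Mb in replicate 1 (25th to 75th percentile 2.6 to 13.8 Mb) and 13.1 Mb in replicate 2 (5.28 to 27.2 Mb), so both medians of the 7 genes lay in the middle range of the genome. The closest of all was a p53 peak of replicate 2 on chromosome 19 at 47104152 to 47104482, which overlapped an ERG peak. It was also the nearest replicate 2 peak to BAX, 2.35 Mb away. For CDKN1A the nearest p53 peaks lay at 4.74 Mb in replicate 1 and 7.40 Mb in replicate 2. For MDM2 they lay at 18.3 Mb and 11.4 Mb, and for FAS at 13.1 Mb and 27.9 Mb. With the windows widened to 500 kb on each side, both p53 lists held 0 peaks at all 7 genes. Of 2955 tiles of 1012 kb, the median length of such windows, 6.09% held a peak of p53 replicate 1, 2.98% a peak of replicate 2 and 7.92% a p53 region of either. At that last share 0.554 of 7 windows would hold one, so this count of 0 is near the background too.

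**Figure D1:**
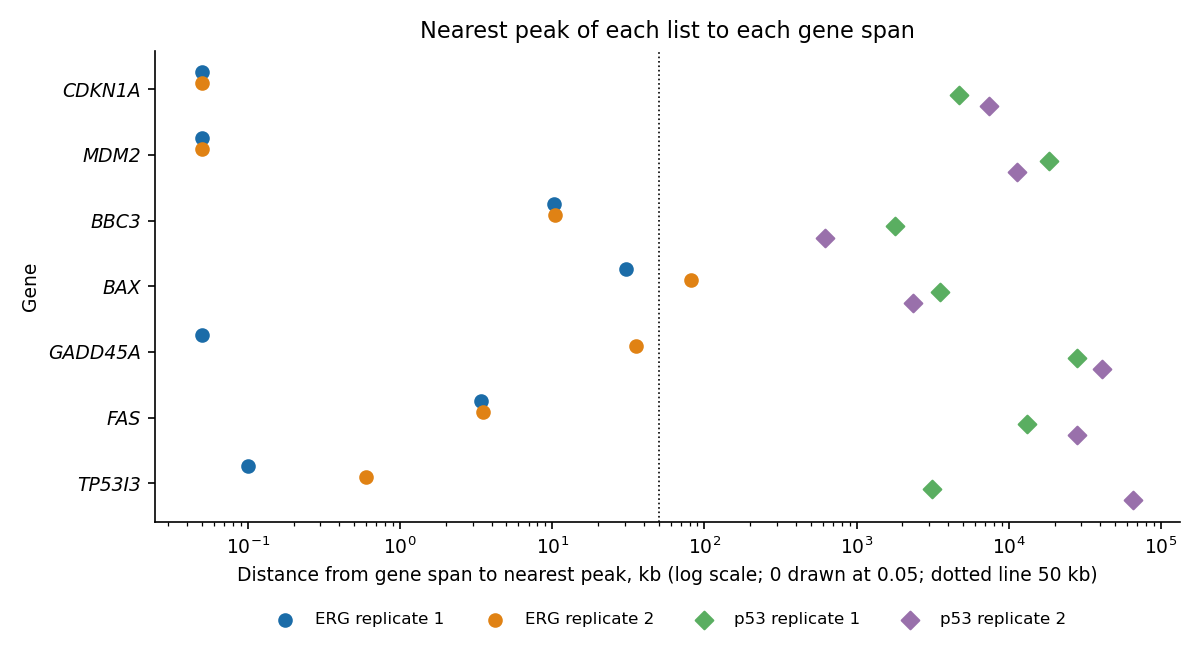
Distance in kb on a log axis (x axis) from each gene span (y axis) to the nearest peak of each of the 4 lists, with ERG as circles, p53 as diamonds, peaks inside the span drawn at 0.05 kb and a dotted line at 50 kb. All 14 p53 diamonds lie beyond 500 kb, and 13 of the 14 ERG circles lie within 50 kb.

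ERG was listed at most of these loci. The ERG lists hold 14337 and 11237 peaks against 227 and 138 for p53. The sizes of the ERG lists equal the ERG peak counts stated for a false discovery rate cut, whereas the p53 lists are far shorter than the p53 counts stated for that cut. The lists of the factors were thus not cut alike, and their counts are not compared with each other here. ERG replicate 1 had a peak in 7 of the 7 windows and ERG replicate 2 in 6, the exception being BAX. The share of 112 kb tiles with a peak was 33.2% for ERG replicate 1 and 27.7% for ERG replicate 2. An ERG region with a peak of each replicate, called shared here, lay in 6 of the 7 windows (85.7%, 95% Wilson interval 48.7% to 97.4%), against 24.5% of tiles, which for 7 tiles would be 1.71. The tiles include stretches without genes and stretches to which reads cannot be aligned, whereas every window was chosen to hold a gene. No hg19 gene annotation was at hand to restrict the tiles, so the difference is not shown to be particular to p53 target genes. The part of gene density in it was not tested.

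**Figure D2:**
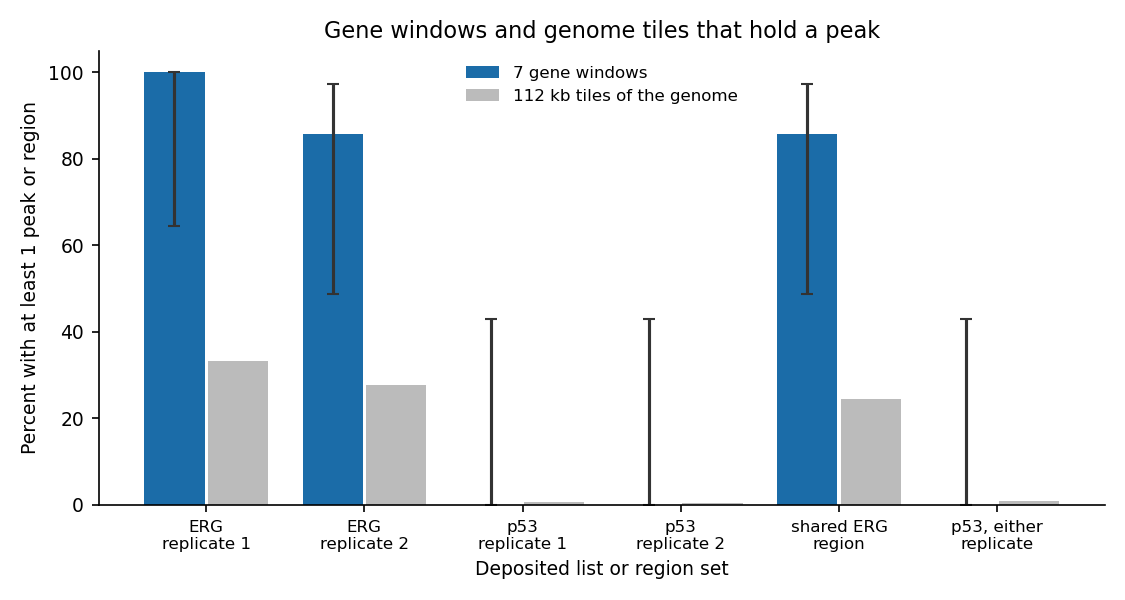
Percent (y axis) of the 7 gene windows (blue) and of 112 kb genome tiles (grey) that hold at least 1 peak or region of each list or set (x axis). Bars on the blue columns are 95% Wilson intervals or, where the count is 0, the limit of 42.9% that it allows. The windows reach 100%, 85.7% and 85.7% for ERG replicate 1, ERG replicate 2 and shared ERG regions and 0% for p53.

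In all, the 15 peaks of ERG replicate 1 and the 9 of replicate 2 merged into 16 regions, of which 8 were shared (50%, 28% to 72%). Over the whole genome 9366 of 16095 ERG regions were shared (58.2%). Of the replicate 1 peaks at the 7 loci, 8 of 15 lay in a shared region (53.3%, 30.1% to 75.2%, against 65.4% of all its peaks). Of those of replicate 2, 8 of 9 did (88.9%, 56.5% to 98%, against 84.2%). Both intervals include the value of the whole list. None of the 8 shared ERG regions met a p53 region, which follows from the count of 0 p53 peaks in the windows. By itself a count of 0 of 8 allows a share of up to 37.5%, and 132 of the 9366 did in all (1.41%). Among tiles with a shared ERG region 2.67% also held a p53 region, and among the other tiles 0.479%.

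**Figure D3:**
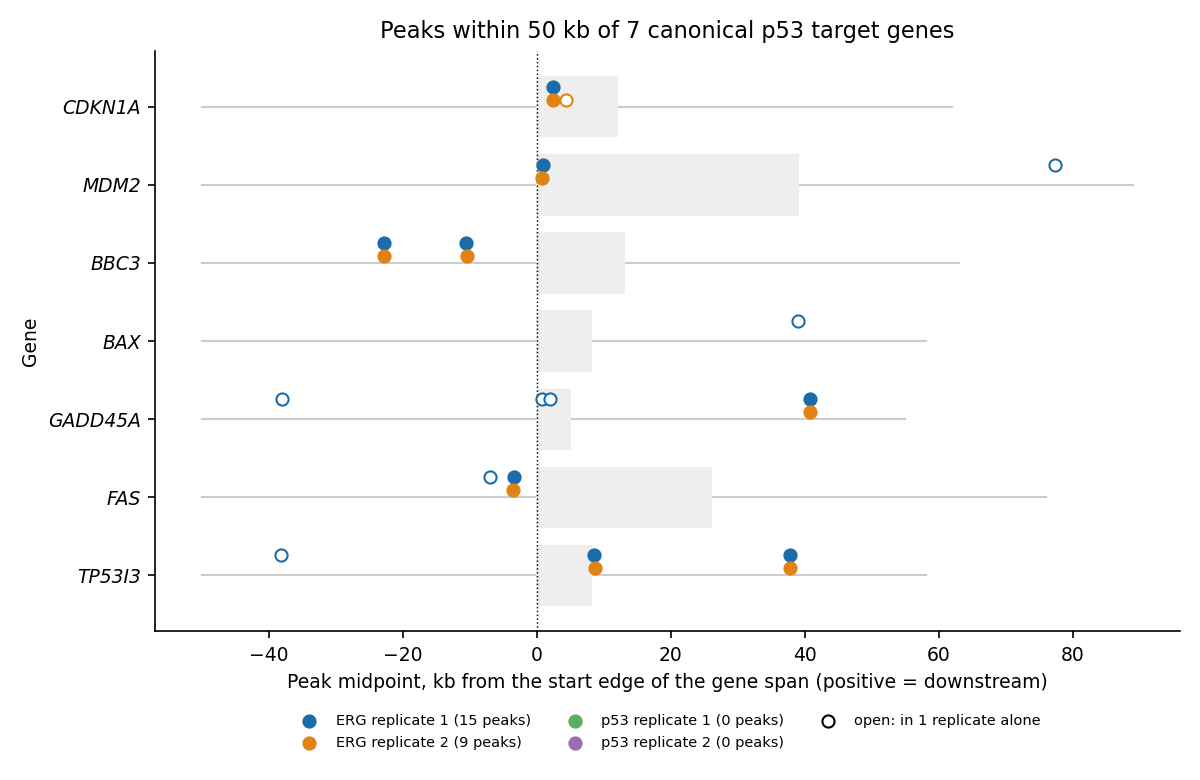
Midpoints of the peaks within 50 kb of each gene (y axis) in kb from the start edge of the gene span along the direction of transcription (x axis), with grey boxes for the spans and grey lines for the windows. Filled circles are peaks in a region found in both ERG replicates and open circles peaks of 1 replicate alone. ERG has 15 and 9 peaks and p53 has 0 in each list, and shared ERG peaks lie inside the spans of CDKN1A and MDM2 only.

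A shared ERG region lay within 5 kb of the span for 4 of the 7 genes, namely CDKN1A, MDM2, FAS and TP53I3, and inside the span for the first pair. Of tiles of 22 kb, the median length of windows with that margin, 6.37% held a shared ERG region. These 4 are described first, then the 3 genes without one.

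At CDKN1A, the p21 gene and the best known p53 target, the shared ERG region lay on chromosome 6 at 36646173 to 36646663. Its peaks were 443 bp wide in replicate 1 and 491 bp in replicate 2, wider than 69.1% and 84.1% of the peaks of their lists. Their midpoints were 9 bp apart and lay 2.4 kb inside the upstream edge of the span. That edge was given to the nearest 1 kb and was not matched to the CDKN1A start used for the promoter above. Whether the shared region lies at that start or within the gene was therefore not determined. A second ERG peak of 359 bp, at 36648083 to 36648441, was listed in replicate 2 alone. These were the only peaks of any list in the 112 kb window, in which RefSeq places 1 other protein-coding gene, RAB44.

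At MDM2, which closes the feedback loop on p53, the shared ERG region lay on chromosome 12 at 69201627 to 69202062. The peaks were 346 bp and 427 bp wide in replicates 1 and 2, with midpoints 49.5 bp apart and 0.9 kb and 0.8 kb from the start edge. Since spans were given to the nearest 1 kb, this places ERG at the start side of MDM2 and cannot tell its first promoter from its second, the one with the p53 element shown above. The other peak in the window was 38.2 kb beyond the far end of the gene, 228 bp wide and in replicate 1 alone.

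At FAS, the death receptor gene, the shared ERG region was narrow and lay upstream. It spanned 90746320 to 90746573 on chromosome 10, 3.4 kb before the span. Its peaks of 224 bp and 200 bp were wider than only 4.06% and 7.22% of the peaks of their lists. A wider ERG peak of 531 bp, at 90742759 to 90743289, was 6.7 kb before the span and was listed in replicate 1 alone. RefSeq has ACTA2, the smooth muscle actin gene, overlapping the longest FAS gene model on this side, so neither peak can be assigned to FAS by position.

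At TP53I3, the ERG region nearest to the gene lay at the end of the gene and not at its start. TP53I3 is read from the minus strand, and the shared region on chromosome 2 at 24299120 to 24299882 was 0.1 kb beyond the end of the span. Spans were given to the nearest 1 kb, so whether the region lies inside the gene end or beyond it was not determined. Of the 8 shared regions, this was the one whose replicate midpoints lay farthest apart. The peak of replicate 1 was 763 bp wide and that of replicate 2 only 261 bp, with midpoints 248 bp apart, and it was the single shared region of the 8 that did not reach a reciprocal overlap of 50%. RefSeq has another gene, FAM228B, overlapping TP53I3 on this side. A second shared region, 29.6 kb beyond the end, had narrow peaks of 220 bp and 202 bp, and a peak of 289 bp lay 38.1 kb upstream in replicate 1 alone.

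At BBC3, the PUMA gene, both ERG regions were shared and both lay upstream of the gene on chromosome 19. The nearer one, at 47747341 to 47747762, was 10.3 kb before the start edge, with peaks of 422 bp and 380 bp whose midpoints were 4 bp apart. The farther one, at 47759449 to 47760260 and 22.4 kb away, was the widest ERG region at any of the 7 loci. Its peaks of 812 bp and 699 bp were each wider than 96.1% of the peaks of their lists, and their midpoints were 7.5 bp apart. RefSeq places 3 other protein-coding genes within 50 kb of BBC3, namely SAE1, CCDC9 and INAFM1.

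At GADD45A the replicates went apart. ERG replicate 1 had 4 peaks in the window and replicate 2 had 1. The 2 peaks inside the gene span, at 68150551 to 68150942 and 68151799 to 68152167 on chromosome 1, were 392 bp and 369 bp wide and were listed in replicate 1 alone. They were wider than 59.4% and 54.1% of the peaks of that list, so they were not among its narrowest. The shared region lay 35.6 kb beyond the end of the gene, at 68190619 to 68191050, and its peaks measured 432 bp and 257 bp.

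BAX was the only one of the 7 genes without a shared ERG region. Its window held a single ERG peak, of replicate 1, on chromosome 19 at 49496594 to 49497218 and 30.6 kb beyond the end of the gene. At 625 bp it was wider than 88.9% of the peaks of its list. In replicate 2 the nearest ERG peak was 81.4 kb from BAX. RefSeq places 5 other protein-coding genes within 50 kb, among them FTL, GYS1 and RUVBL2, and over all 7 windows there were 19 such neighbours. Peaks more than a few kb from a span therefore stand beside other genes as well, and a peak in a window is not a peak of the named gene.

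**Figure D4:**
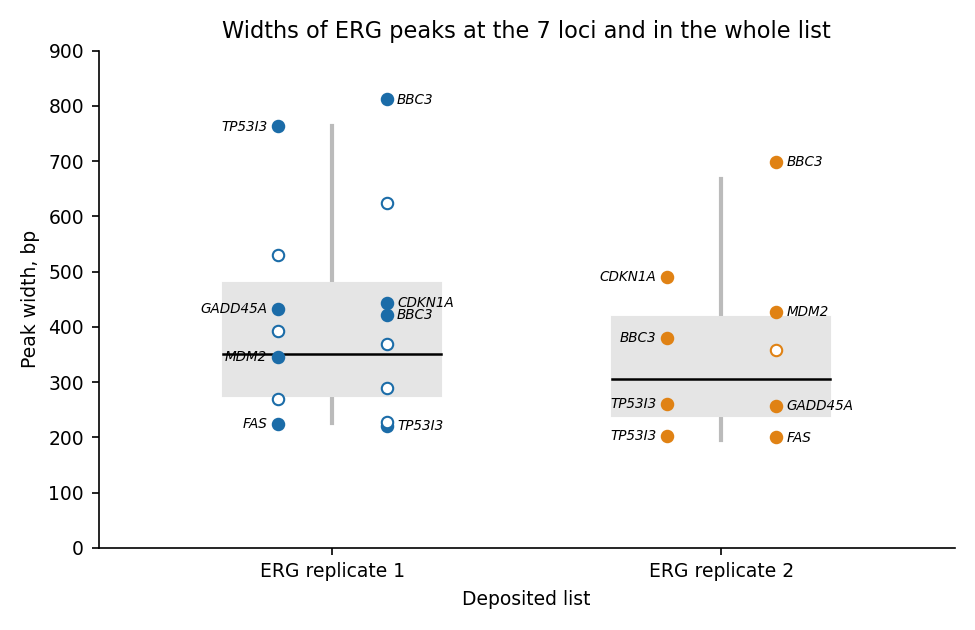
Width in bp (y axis) of the ERG peaks at the 7 loci in each ERG list (x axis), filled and named where the region is found in both replicates and open where it is in 1 alone. Grey boxes run from the 25th to the 75th percentile of the whole list, grey lines from the 5th to the 95th, and black lines mark the list medians of 351 bp and 306 bp. Most member peaks lie between the 5th and 95th percentiles, with the farther BBC3 region above them in both lists.

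By width, the ERG peaks at these loci resembled ERG peaks elsewhere. Their median was 392 bp in replicate 1 (range 220 bp to 812 bp, 15 peaks) and 359 bp in replicate 2 (200 bp to 699 bp, 9 peaks), beside 351 bp and 306 bp over the whole lists. The loci differed in how much ERG lay around them. Within 500 kb of the span there were 13 shared ERG regions at BBC3 and 11 at BAX, both on chromosome 19, 8 at MDM2, 7 at CDKN1A, 4 each at GADD45A and TP53I3, and 3 at FAS, beside a median of 2 in tiles of 1012 kb (25th to 75th percentile 0 to 5). BAX thus had none within 50 kb in a stretch with many farther away.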

How the data were processed

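Per the labels, 2 ERG and 2 p53 ChIP-seq samples of VCaP cells and 1 input were made. Per the submitters' processing notes, CASAVA 1.4, Bowtie2 2.3.3.1 and MACS2 were used with hg19 (GRCh37), and the authors deposited 1 peak list per sample, not pooled. Each has 4 columns (chromosome, start, end, name) and no score, summit or read count, so read depth is unknown from the lists. The study does state mapped reads for each sample, and these were not used here. The methods name another Bowtie2 version and both builds. Different p-value cuts are stated for ERG and for p53 in one place and a single cut in another, and none could be tied to the p53 lists. The study calls the replicates biological, but whether they were separate cultures is not stated in the labels.

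Gene spans in hg19 were used to the nearest 1 kb. Overlap was at least 1 bp, and merged regions with peaks of both replicates were taken as shared. All results are counts and descriptions without a test. Wilson intervals (95%) and limits for a count of 0 (3 counts of the total) cover counting error only. All 7 genes are named, with every shared ERG region within 5 kb of a span and the widest region of each window; other peaks are named besides, chosen after their values were seen. Members, lists and rules were chosen with earlier results of these data known. Strand and neighbouring genes came from GENCODE v44 and RefSeq (GRCh38), without use of their coordinates against the peaks. Other genes of the p53 pathway need an hg19 annotation and were not analysed here. Promoters (250 bases before to 50 after a start) were searched on both strands. Counting was tested on simulated data. Python 3.11.15, numpy 2.4.6, scipy 1.17.1 and matplotlib 3.10.9 were used.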

Additional observations from a re-analysis of the deposited data

How the results depend on the processing

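The count of 0 p53 regions in the 7 windows was also 0 with a margin of 500 kb. That fixes the counts of 0 with margins of 5, 10 and 100 kb, with peak midpoints and with either p53 replicate left out. Counts of ERG peaks followed the margin by construction. With 5 kb, 6 peaks of replicate 1, 5 of replicate 2 and 4 shared regions were left, with 10 kb 7, 5 and 4, and with 500 kb, a margin chosen after seeing the data, there were 80, 57 and 50. Leaving out an ERG replicate gave 9 (without replicate 1) and 15 peaks (without replicate 2) in place of 8 shared regions, since all peaks of the remaining list are then counted. A reciprocal overlap of 50% left 7. The share of tiles with a shared ERG region was 23.3% and 28.3% with tiles as long as the shortest and the longest window, 68.5% among tiles with any ERG peak, and 6.37% and 71.7% with tiles of 22 kb and 1012 kb, lengths chosen after seeing the data. For p53 of either replicate it was 1.25% with the longest tiles, 2.2% among tiles with any ERG peak, and 0.211% and 7.92% with tiles of 22 kb and 1012 kb. A stricter threshold was not run, since the lists carry no score. No paired analysis was possible because counts of listed peaks involve no test. Read depth was not used, and a missing peak says only that none was listed.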
